A study of Rattus norvegicus with 111 samples.

Results

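PFO5DoA is a perfluoroalkyl ether carboxylic acid, a fluorinated surfactant whose carbon chain is interrupted by oxygen atoms. The data described here are the maternal livers of rat dams given 10 mg/kg/d of it and of their vehicle controls, 9 libraries (4 treated and 5 control) of 111 in the series. The dose of each library came from the labels, through the dam identifier that opens the column name. The column names do not tell the maternal from the fetal library of a dam, so the stage was placed by expression: of a dam's 2 columns, the one with the higher Pearson r of log2(CPM + 1) over all rows with the only column of dam 2286, labelled maternal, was taken as maternal. CPM is a gene's count scaled to a common library total. A control dam, 2279, was left out.

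All dams were time-mated Sprague-Dawley rats, about 11 to 12 weeks old on arrival, dosed by mouth daily from gestational day 18 to 22. Those at 10 mg/kg/d received PFO5DoA in the vehicle, and those at 0 mg/kg/d the vehicle, 0.5% Tween-80, alone. Livers were taken 2 to 4 hours after the last dose, and each library is 1 dam. The series also holds the fetal livers, other doses of PFO5DoA and a second compound, PFO4DA, with its own controls. It was made to compare dose-responsive liver expression between mothers and fetuses, measured with TempO-Seq, a targeted assay that joins pairs of probes lying side by side on an RNA and counts the joined pairs by sequencing.

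The maternal liver of late pregnancy supplies glucose, lipids and plasma proteins for mother and fetus. In rodents, many perfluoroalkyl acids of similar build are known to activate PPARα, a nuclear receptor of hepatocytes that raises genes of fatty acid uptake and oxidation. The annotation used here holds no identifiers of the type in the tables, so none of the 20311 could be matched to a gene name. Neither PPARα targets nor liver cell markers are therefore reported by name, and genes appear as identifiers, without roles.

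The stage was used to choose the libraries, so the following values describe the choice and are not a result. In the 9 dams r with dam 2286 was 0.943 to 0.986 for the columns placed as maternal and 0.872 to 0.923 for those placed as fetal. The gap within a dam was 0.0567 at its smallest and 0.101 at its largest. Dam 2286 had itself received 30 mg/kg/d, so a higher r at 10 mg/kg/d carries no separate information. The 101 genes over 50-fold higher in the fetal than in the maternal PFO4DA controls, placed in the same way, summed to 1346 to 3600 CPM in the maternal libraries at 10 mg/kg/d and 1366 to 2927 CPM in those at 0 mg/kg/d. In the fetal libraries of the same 9 dams they summed to 162347 to 279211 CPM. The summed level in dam 2277, at 10 mg/kg/d, was the highest of the 9 maternal libraries. Without this dam 1305 genes were called at 10 against 0 mg/kg/d, in place of the 1488 described below.

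The 4 libraries at 10 mg/kg/d held 7211576 to 10738654 counts and the 5 at 0 mg/kg/d held 7740148 to 13095088. Within the 10 mg/kg/d group the mean r of a library with the others was 0.964 to 0.967. Among the controls it was 0.947 to 0.959 for 4 libraries and 0.931 for dam 2263. At 3 mg/kg/d dam 2282 stood lowest, with 0.950.

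At 10 mg/kg/d PFO5DoA, 1488 of 10615 genes tested differed from the controls, or 14.0%: 704 rose (6.63%) and 784 fell (7.39%). The test was edgeR's quasi-likelihood test with a Benjamini-Hochberg adjusted p under 0.05, in 1 fit over the maternal libraries of 6 dose groups. The median log2 fold change was 0.95 among the risen genes and -1.01 among the fallen genes, against -0.04 over all genes tested. The rises had the longer tail. Of the risen genes 331 passed 2-fold, 124 passed 4-fold, 61 passed 8-fold and 29 passed 16-fold. Of the fallen genes 400 passed 2-fold, 66 passed 4-fold, 10 passed 8-fold and 5 passed 16-fold. In bulk tissue, fewer cells of a type and less RNA per cell cannot be told apart.

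The 2 groups did not overlap in 531 of the 704 risen genes and 528 of the 784 fallen genes. Over all genes tested, all 4 libraries at 10 mg/kg/d lay above all 5 controls in 6.73% and below them in 6.51%. These calls came from the same libraries as the test and add no support to it. The number of calls was 793 with the 10 and 0 mg/kg/d dams alone in the fit. Leaving out 1 dam gave 902 (without dam 2284) to 1872 (without dam 2278), and 944 without dam 2283. Without dams 2263 and 2282, the libraries at 0 and 3 mg/kg/d least like their groups, it was 1133. The balance of rises and falls was not stable: falls outnumbered rises in the fit over all doses, but there were 399 rises and 394 falls with the 10 and 0 mg/kg/d dams alone and 485 rises and 417 falls without dam 2284. With a minimum fold of 1.5 there were 185 rises and 112 falls.

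**Figure D1:**
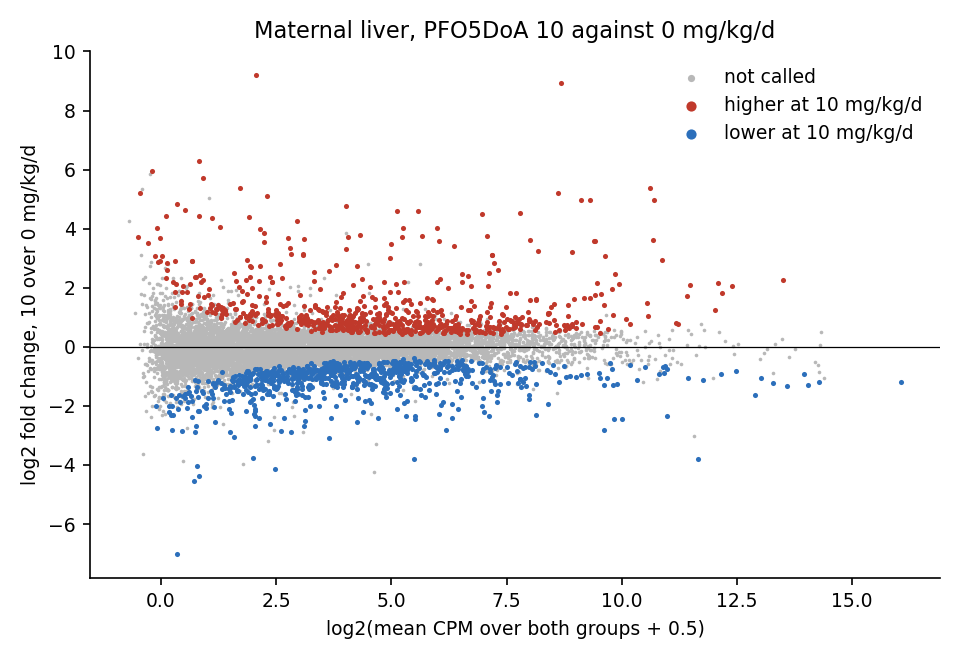
Fold change against level in maternal liver. Each point is 1 of 10615 genes: the horizontal axis gives log2 of the mean CPM over both groups plus 0.5, and the vertical axis the log2 fold change of 10 over 0 mg/kg/d PFO5DoA. The 704 genes called higher (red) have the longer tail: 124 of them passed 4-fold, against 66 of the 784 called lower (blue). The medians of 0.95 and -1.01 are about equally far from 0, and both sets lie across the whole range of levels.

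Calls were spread over genes of all levels but not evenly. The genes tested were cut into 4 equal classes by mean level. In the lowest class 65 rose and 83 fell, 5.58% of the class. The next 2 classes had 108 rises with 216 falls (12.2%) and 208 rises with 238 falls (16.8%). In the highest class, from 30.6 CPM upward, 323 rose and 247 fell, 21.5% of the class. The share of genes called was larger in each higher class. Power to call a change also grows with the level.

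Among the 50 most abundant genes of the control livers, which together held 53.7% of the CPM, 16 fell and 2 rose. Of the 50 most abundant genes at 10 mg/kg/d, 38 were also among those 50 in the controls. The other 12 were new to the top 50, and 11 of them had risen. Genes ranked by 1 group are favoured to be higher in that group, so these counts describe which genes held the counts and are no test of direction.

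The library composition moved with these genes. The 704 risen genes took 16.6%, 15.8%, 19.4% and 18.5% of the counts in dams 2276, 2277, 2283 and 2284 at 10 mg/kg/d. In the control dams 2263, 2264, 2265, 2278 and 2280 they took 4.32%, 6.14%, 4.71%, 6.56% and 5.12%. The groups lay far apart, with means of 17.6% ± 1.66 at 10 mg/kg/d and 5.37% ± 0.948 in the controls (SD, n = 4 and 5), for genes that were chosen for this difference.

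The 784 fallen genes took 18.4%, 16.5%, 14.7% and 12.7% of the counts in dams 2276, 2277, 2283 and 2284 at 10 mg/kg/d. In the 5 controls they took 36.3%, 26.8%, 32.3%, 27.4% and 31.9%, in the same order of dams. The highest library at 10 mg/kg/d stood below the lowest control, and the means were 15.5% ± 2.45 at 10 mg/kg/d and 30.9% ± 3.92 in the controls (SD, n = 4 and 5). Dams 2283 and 2284 had the larger share of risen genes and the smaller share of fallen genes in their group.

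A measure that did not choose genes by dose was the share of the most abundant genes. The 100 most abundant genes of each library took 54.6%, 58.4%, 51.2% and 52.0% of its counts in dams 2276, 2277, 2283 and 2284 at 10 mg/kg/d. In the controls they took 57.9%, 59.8%, 67.5%, 59.0% and 63.9%, so the groups overlapped only through dams 2277 and 2263. The exact two-sided permutation test gave p = 0.0238 for the difference of -7.59 percentage points, and 0.119 after adjustment over 5 library measures, so it did not pass. The smallest p that 4 against 5 libraries allow is 0.00794, which the same measure over the 50 most abundant genes, chosen after seeing the data, reached with a difference of -8.71 points. Over 100 genes the unadjusted p was above 0.05 without any one of 7 of the 9 dams, at most 0.0714.

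The other library measures overlapped between the groups. At an equal depth of 7211576 counts, 13349 ± 624 genes were detected at 10 mg/kg/d and 12864 ± 441 in the controls (SD, n = 4 and 5; exact permutation p = 0.206). The 44 genes that mark maternal against fetal PFO4DA control liver summed to 33984 ± 10062 CPM at 10 mg/kg/d and 47512 ± 19143 CPM at 0 mg/kg/d (exact permutation p = 0.254). Only 1 gene had no count in any control and at least 3 counts in all 4 libraries at 10 mg/kg/d, and 0 genes had the reverse pattern.

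That gene was ENSRNOG00000012851, 1 of the 2 largest rises by fitted fold change among genes that reached 5 CPM in a group and whose groups did not overlap. It had 20, 17, 136 and 85 counts in dams 2276, 2277, 2283 and 2284 at 10 mg/kg/d, or 2.12, 1.60, 16.2 and 9.39 CPM, and 0 counts in the 5 controls. Dams 2283 and 2284 held most of the counts. Against a floor of 3 counts over the control group it was at least 128-fold higher at 10 mg/kg/d (edgeR adjusted p = 5.42e-05). A fitted fold against a group at 0 depends on the settings, so the order of the 2 rises is not fixed: DESeq2 gave a log2 fold change of 8.63 for this gene and 8.94 for ENSRNOG00000055221.

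The other was ENSRNOG00000055221, which was evenly high at 10 mg/kg/d. It stood at 778, 933, 881 and 672 CPM in dams 2276, 2277, 2283 and 2284, against 1.00, 1.74, 1.83, 2.05 and 1.79 CPM in control dams 2263, 2264, 2265, 2278 and 2280. All 4 libraries at 10 mg/kg/d were close to each other and far above the 5 controls. The log2 fold change was 8.92 (SE 0.48, edgeR adjusted p = 9.74e-12).

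The largest fall under the same criteria was ENSRNOG00000004294, a gene of low level. It had 9, 2, 8 and 1 counts in dams 2276, 2277, 2283 and 2284 at 10 mg/kg/d (0.956, 0.188, 0.950 and 0.110 CPM) and 17.4, 9.28, 12.2, 2.05 and 7.24 CPM in the 5 controls. The control of dam 2278 came closest to the 10 mg/kg/d libraries. The log2 fold change was -4.14 (SE 0.94, edgeR adjusted p = 0.00682), and the treated level rests on 20 counts in all.

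ENSRNOG00000011696 was far more abundant, and its controls were uneven. It stood at 630, 443, 353 and 285 CPM in dams 2276, 2277, 2283 and 2284 at 10 mg/kg/d, against 2740, 2873, 21555, 1752 and 1026 CPM in control dams 2263, 2264, 2265, 2278 and 2280. Dam 2265 stood far above the other controls, and the absence of overlap with the treated libraries was a condition for choosing the gene. The log2 fold change was -3.81 (SE 1.07, edgeR adjusted p = 0.0248). Without dam 2265 it was -2.30 with an adjusted p of 0.0752. Without dam 2276, 2277, 2283 or 2284 it was -4.06, -3.83, -3.73 or -3.66, about as large, with adjusted p values of 0.0501, 0.0548, 0.0707 or 0.0774. The call was lost without any of these 5 libraries, and the fold moved most without dam 2265.

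Neighbouring doses were compared to place 10 mg/kg/d within the dose series. Each dose below was set against the same 5 controls, so the comparisons are not independent of one another. Against those controls, 0 genes were called at 0.3 mg/kg/d by edgeR (0.00%; 562 at an unadjusted p under 0.05). The dose of 1 mg/kg/d had 45 calls upward and 3 downward (0.452%), and 3 mg/kg/d had 192 upward and 89 downward (2.65%). The 704 and 784 calls at 10 mg/kg/d were followed by 2067 upward and 2155 downward at 30 mg/kg/d (39.8%). Rises outnumbered falls at 1 and 3 mg/kg/d, and the balance at 10 mg/kg/d turned with the settings, as given above. Groups of 3 dams at 0.3 and 1 mg/kg/d give the test less power than groups of 4.

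The genes called at 10 mg/kg/d had graded medians at the other doses. The 704 risen genes had a median log2 fold change of 0.25 at 0.3 mg/kg/d, 0.41 at 1, 0.63 at 3, 0.95 at 10 and 1.20 at 30 mg/kg/d. The 784 fallen genes had medians of -0.32, -0.39, -0.57, -1.01 and -1.22 at these doses. Over all genes tested the medians were within -0.07 to -0.02. All of these values are relative to the same 5 controls, which also chose the genes, so the medians at the other doses are no independent support for the calls. The doses also differ in their share of dams from each of the runs of identifiers described below.

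**Figure D2:**
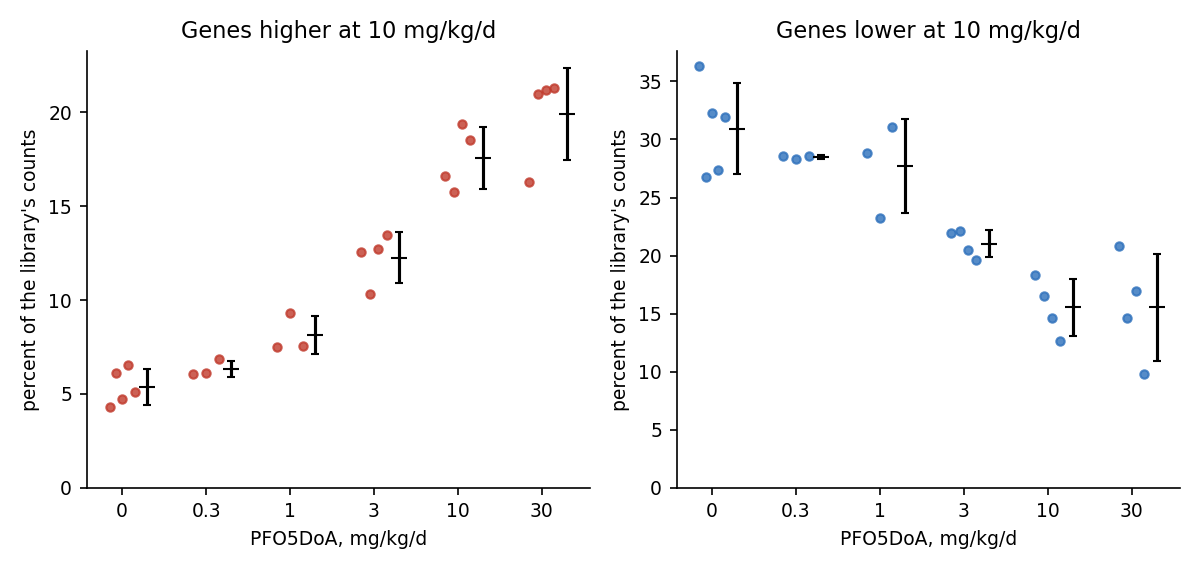
Share of a library's counts in the genes called at 10 mg/kg/d, in percent, by dose of PFO5DoA in mg/kg/d. Points are maternal libraries, and the bar beside each group is the mean with its SD. The genes higher at 10 mg/kg/d averaged 5.37% at 0, 6.33% at 0.3, 8.13% at 1, 12.3% at 3, 17.6% at 10 and 19.9% at 30 mg/kg/d, and the genes lower at 10 mg/kg/d averaged 30.9%, 28.5%, 27.7%, 21.0%, 15.5% and 15.5%.

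The plot of count shares by dose shows that the share in the risen genes stood higher at 10 mg/kg/d in all 4 dams (15.8% to 19.4%) than in any dam at 3 mg/kg/d (10.3% to 13.5%). The share in the fallen genes was 12.7% to 18.4% at 10 mg/kg/d, against 19.6% to 22.1% at 3 mg/kg/d. In the dams given 30 mg/kg/d the fallen genes took 9.81% to 20.8%, a range that covers all 4 libraries at 10 mg/kg/d. The genes were chosen with the 10 mg/kg/d libraries, which favours their standing apart from other doses, so these shares are a description.

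Few genes passed a direct test of 10 against 3 mg/kg/d: edgeR called 2 of 10615 genes (0.0188%), both rises, and 658 at an unadjusted p under 0.05. DESeq2 called 9. Leaving out dam 2274 or 2281 at 3 mg/kg/d left 0 calls, dams 2275, 2282 or 2276 left 1, and without dam 2277 there were 4. For ENSRNOG00000012851 the log2 fold change of 10 over 3 mg/kg/d was 2.91, which did not pass in edgeR (adjusted p = 0.460; 0.0989 to 0.990 with 1 dam left out) and passed in DESeq2 (2.94, adjusted p = 0.0137). Neither of the 2 genes called by edgeR was among the 4 identifiers above, and both had a mean of at most 6.92 CPM at 10 mg/kg/d. The counts of calls against the controls, larger at 10 than at 3 mg/kg/d, are therefore no count of genes that differ between these doses.

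Between 30 and 10 mg/kg/d the levels of 775 genes differed (7.30%), 411 of them higher and 364 lower at the higher dose. By 30 mg/kg/d the dams had a body weight about 17% below controls, per the labels' protocols. The count was 316 without dam 2288, 427 without dam 2287, 439 without dam 2277 and 441 without dam 2284. All dams at 30 mg/kg/d were in the second run of identifiers described below, while those at 10 mg/kg/d were in both runs.

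The 4 identifiers differed in how they followed the dose. ENSRNOG00000055221 averaged 1.68 ± 0.398 CPM at 0, 4.20 ± 3.28 at 0.3, 74.1 ± 46.5 at 1, 464 ± 175 at 3, 816 ± 116 at 10 and 1167 ± 267 CPM at 30 mg/kg/d (SD, n = 5, 3, 3, 4, 4 and 4). It was called from 1 mg/kg/d upward against the controls, with an adjusted p of 1.1e-07 at that dose. Its levels at 10 and 3 mg/kg/d (adjusted p = 0.777) and at 30 and 10 mg/kg/d (adjusted p = 0.447) did not differ past the test.

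ENSRNOG00000012851 had 0 counts at 0 and 1 mg/kg/d and a single count at 0.3 mg/kg/d. It averaged 0.963 ± 0.380 CPM at 3, 7.32 ± 6.88 at 10 and 2.85 ± 1.94 CPM at 30 mg/kg/d (SD, n = 4 each). Its mean was highest at 10 mg/kg/d, but the ranges at 10 and 30 mg/kg/d overlapped and the difference of 30 from 10 did not pass the test (adjusted p = 0.210).

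Both falls had their lowest mean at 10 mg/kg/d. ENSRNOG00000004294 averaged 9.64 ± 5.71 CPM at 0, 11.5 ± 7.28 at 0.3, 5.23 ± 2.32 at 1, 3.93 ± 2.28 at 3, 0.551 ± 0.465 at 10 and 3.05 ± 3.55 CPM at 30 mg/kg/d. ENSRNOG00000011696 averaged 5989 ± 8734 CPM at 0, 6171 ± 5422 at 0.3, 3269 ± 1232 at 1, 2300 ± 1547 at 3, 427 ± 150 at 10 and 1641 ± 2374 CPM at 30 mg/kg/d. Neither was called at 30 mg/kg/d against the controls, with adjusted p values of 0.0828 for ENSRNOG00000004294 and 0.138 for ENSRNOG00000011696. Their higher means at 30 than at 10 mg/kg/d did not pass either, with adjusted p values of 0.148 for ENSRNOG00000004294 and 0.277 for ENSRNOG00000011696, and both genes were chosen for being low at 10 mg/kg/d. These means rest in part on dam 2285: without it the log2 change of 30 over 10 mg/kg/d was 0.0957 in place of 1.94 for ENSRNOG00000011696 and 1.46 in place of 2.47 for ENSRNOG00000004294.

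**Figure D3:**
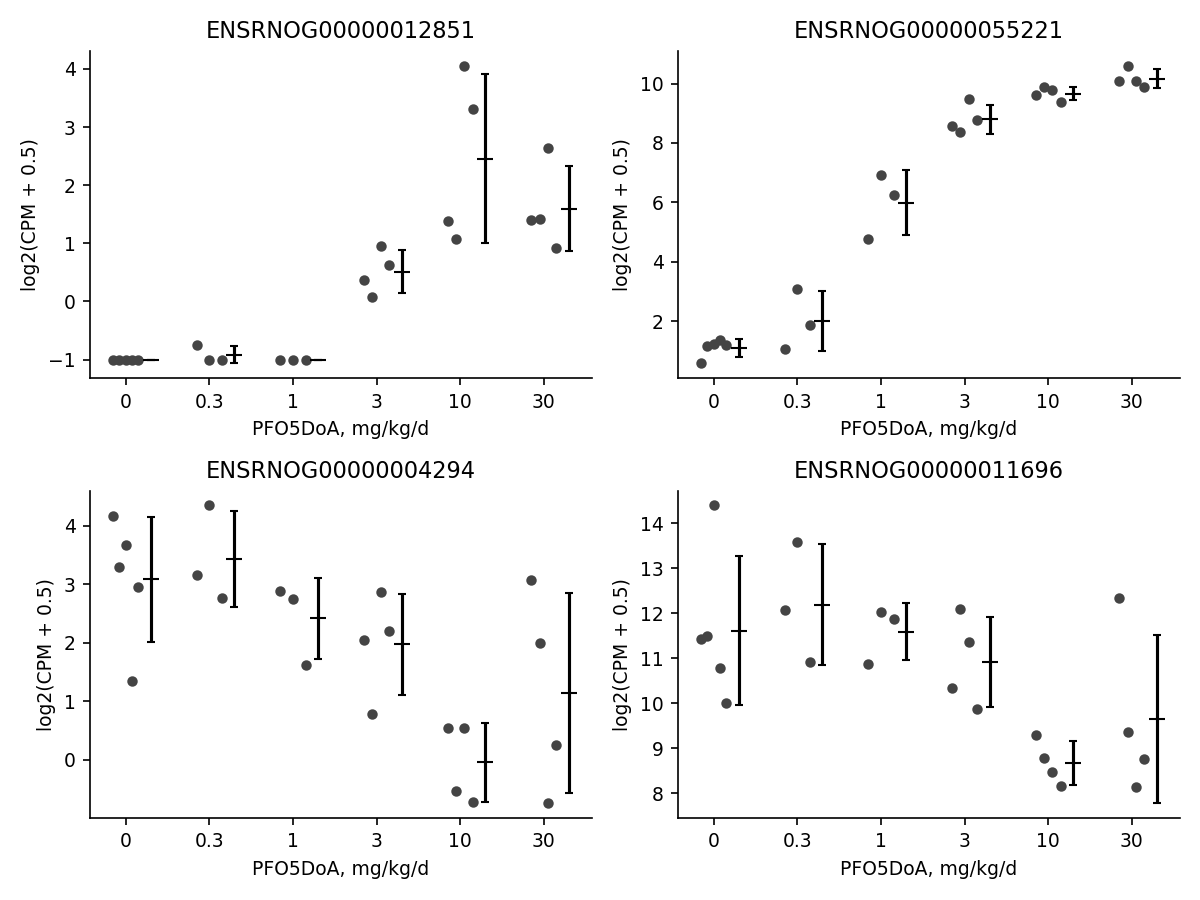
Levels of the 4 identifiers in each maternal library as log2(CPM + 0.5), by dose of PFO5DoA in mg/kg/d. Points are dams, with the mean and SD of each group beside them. ENSRNOG00000055221 is above all controls in every dam from 1 mg/kg/d upward, and ENSRNOG00000004294 and ENSRNOG00000011696 have their lowest means at 10 mg/kg/d and spread widely at 30 mg/kg/d.

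The fetal livers of the same 9 dams were used to test whether the maternal change differed from the fetal one, in a fit with the dam as a block. The difference between maternal and fetal change passed the test in 230 of 11157 genes, or 2.06% (1732 at an unadjusted p under 0.05). The change was higher in the mother in 132 genes and lower in 98. DESeq2 called 455, and edgeR called 134 without dam 2277. Without dam 2265 the split was 81 higher and 86 lower. For scale, the fetal livers alone had 806 rises and 884 falls at 10 mg/kg/d among 11509 genes tested (14.7%).

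Opposite directions were common among these genes. On the log2(CPM + 0.5) scale, the 132 genes had a median change of 0.68 in maternal and -1.03 in fetal liver, and 88 of them were up in the mother and down in the fetus. The 98 genes had a median change of -0.73 in maternal and 0.75 in fetal liver, and 69 were down in the mother and up in the fetus. These medians and counts describe genes that were chosen by the same difference, which favours opposite directions. The share of opposite directions over all genes tested is not given here.

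ENSRNOG00000055221 was among the 132. Its log2 fold change was higher in maternal than in fetal liver by 2.22 (95% interval 1.57 to 2.87, edgeR adjusted p = 0.00203). The fetal libraries stood at 667, 744, 967 and 806 CPM in dams 2276, 2277, 2283 and 2284 at 10 mg/kg/d, against 6.08, 13.8, 5.88, 8.73 and 5.14 CPM in the 5 controls. The maternal and fetal levels, which were scaled separately, overlapped at 10 mg/kg/d, and all fetal controls stood above all maternal controls.

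ENSRNOG00000011696 had a maternal change that differed from the fetal one by -2.75 on the log2 scale (95% interval -4.09 to -1.42), which did not pass (edgeR adjusted p = 0.0603). It passed in DESeq2 (0.0128) and without dam 2265 (0.00568) or 2280 (0.0260), within a range of 0.00568 to 0.162 over the fits without 1 dam. In the fetal libraries it stood at 259 to 409 CPM at 10 mg/kg/d and 256 to 424 CPM at 0 mg/kg/d. The maternal libraries at 10 mg/kg/d, at 285 to 630 CPM and scaled separately, overlapped these fetal levels. ENSRNOG00000004294 was near the limit of detection in fetal liver, with at most 1 count per library at 10 mg/kg/d and at most 4 counts at 0 mg/kg/d. ENSRNOG00000012851 was also at 0 in all 5 fetal controls and had 41, 26, 184 and 3 counts in the fetal libraries of dams 2276, 2277, 2283 and 2284 at 10 mg/kg/d. In both livers dam 2283 held the most counts of this gene. Its maternal and fetal changes did not differ past the test in edgeR or in DESeq2 (adjusted p = 0.975 in DESeq2).

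**Figure D4:**
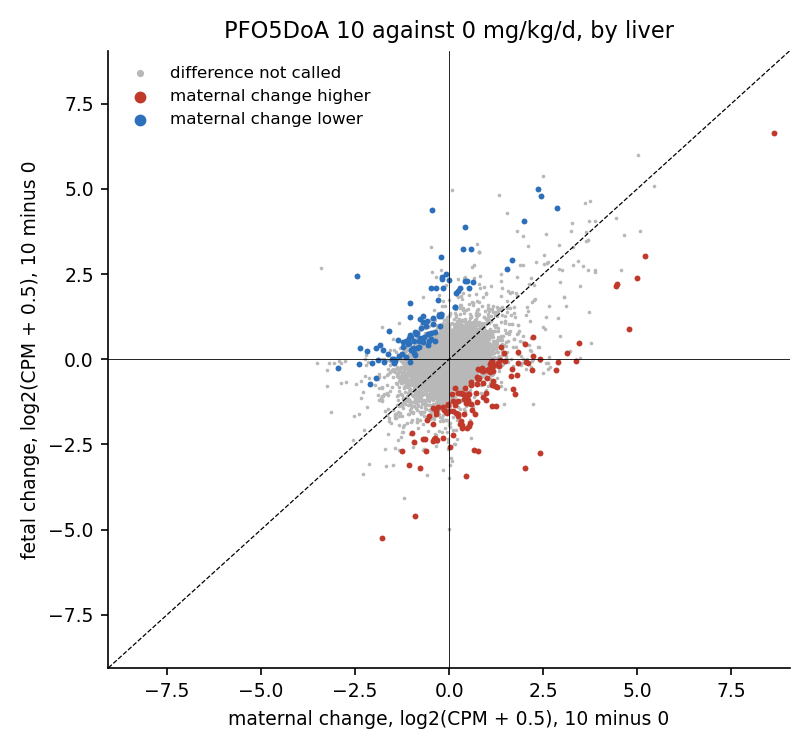
Maternal change (horizontal) against fetal change (vertical) from 10 against 0 mg/kg/d PFO5DoA, both as differences of log2(CPM + 0.5), for 11157 genes. The dashed line marks equal change. Genes whose maternal change was higher (132, red) lie below the line, mostly at negative fetal values, and those whose maternal change was lower (98, blue) lie above it. ENSRNOG00000055221 is the red point at the far upper right. Both colored sets were chosen by the difference between maternal and fetal change.

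PFO4DA is the shorter homologue of PFO5DoA, with a chain shorter by a single difluoromethoxy unit, and was given at the same 10 mg/kg/d in its own dams with its own controls. The change at 10 mg/kg/d differed between the compounds in 397 of 10173 genes, or 3.90% (2139 at an unadjusted p under 0.05). It was higher under PFO5DoA in 211 genes and lower in 186. In the 211 genes the median log2 fold change was 1.29 under PFO5DoA and 0.00 under PFO4DA. In the 186 genes it was -1.26 under PFO5DoA and 0.16 under PFO4DA. These medians describe genes that were chosen by the same difference, so they do not show a lack of response to PFO4DA. DESeq2 called 731 genes, 359 higher and 372 lower under PFO5DoA, and edgeR called 259 without dam 2276, 205 without dam 2283, 216 without dam 2284 and 258 without dam 2316 of the PFO4DA group.

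ENSRNOG00000055221 had the difference of 6.20 on the log2 scale (95% interval 4.59 to 7.81, edgeR adjusted p = 0.000231), higher under PFO5DoA. Under PFO4DA it stood at 1.68 to 18.2 CPM at 10 mg/kg/d and 0.582 to 1.74 CPM at 0 mg/kg/d, far below the 672 to 933 CPM at 10 mg/kg/d PFO5DoA. For ENSRNOG00000004294 the difference was -4.29 (95% interval -6.75 to -1.82, adjusted p = 0.0678) and for ENSRNOG00000011696 it was -4.16 (95% interval -6.69 to -1.63, adjusted p = 0.0820), and neither passed in edgeR. Both passed in DESeq2 (adjusted p = 0.00859 for ENSRNOG00000004294 and 0.0336 for ENSRNOG00000011696). ENSRNOG00000004294 also passed without dam 2278 (0.0417) or dam 2295 of the PFO4DA controls (0.0435), within 0.0417 to 0.147 over the fits without 1 dam. ENSRNOG00000012851 had a single count over the 4 PFO4DA libraries at 10 mg/kg/d and 0 in their controls. Its difference between compounds did not pass in edgeR (adjusted p = 0.9998) or in DESeq2 (adjusted p = 0.0941).

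**Figure D5:**
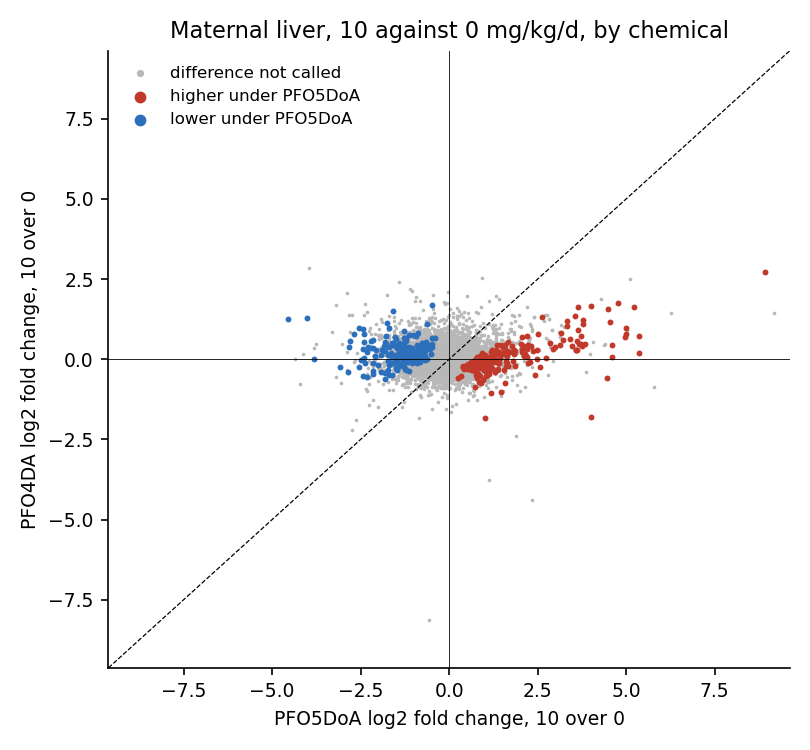
Log2 fold change of 10 over 0 mg/kg/d in maternal liver under PFO5DoA (horizontal) and PFO4DA (vertical) for 10173 genes. The dashed line marks equal change. The 211 genes higher under PFO5DoA (red) and the 186 lower (blue) spread along the horizontal axis, with medians of 0.00 and 0.16 under PFO4DA. Single genes can lie away from 0 on the vertical axis: ENSRNOG00000055221, a red point, is at 2.73. Both colored sets were chosen by the difference between the compounds.

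Within the maternal PFO4DA libraries edgeR called 0 genes at 0.3, 1 and 3 mg/kg/d (0.00% each; 269, 221 and 285 at an unadjusted p under 0.05). The 10 mg/kg/d dams had 1 call (0.00974%). The dams at 30 mg/kg/d had 65 calls, 63 upward and 2 downward (0.633%). Those at 62.5 mg/kg/d had 252, with 185 upward and 67 downward (2.46%). As the doses differ, the following overlap is a description. Of the 185 rises at 62.5 mg/kg/d PFO4DA, 127 (68.6%) had also risen at 10 mg/kg/d PFO5DoA, which is 19.1% of the 665 PFO5DoA rises tested in both. Of all genes tested in both, 6.55% rose at 10 mg/kg/d PFO5DoA.

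Of the 67 falls at 62.5 mg/kg/d PFO4DA, 23 (34.3%) had also fallen at 10 mg/kg/d PFO5DoA, 2.95% of the 779 PFO5DoA falls tested in both. Over all genes tested in both, 7.67% fell at 10 mg/kg/d PFO5DoA, and 0 genes were called in opposite directions. The 665 genes risen under PFO5DoA had a median log2 fold change of 0.20 at 62.5 mg/kg/d PFO4DA, and the 779 fallen genes one of -0.10, against 0.00 over all genes. The shares of rises and falls were not tested against each other.

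The PFO5DoA dams have consecutive identifiers. They were split into 2 runs at dam 2278, where the order of doses starts again at 0 mg/kg/d. Both groups have dams in each run. The first holds 2276 and 2277 at 10 mg/kg/d with 2263, 2264 and 2265 at 0 mg/kg/d. The second holds 2283 and 2284 at 10 mg/kg/d with 2278 and 2280 at 0 mg/kg/d. The labels do not say that a run is a batch. The dams at 0.3 and 1 mg/kg/d are all in the first run, and those at 30 mg/kg/d all in the second. The fit over all doses had no term for the run, so comparisons with these doses do not separate run from dose. Within the first run 67 genes rose and 11 fell of 9836 tested (0.793%), and within the second 315 rose and 273 fell of 9411 (6.25%). With the run as a covariate 783 genes were called.

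The runs share no library, so their directions can be compared. The first run called 75 genes that were also tested in the second, and 65 of these kept their sign there. The second run called 581 that were also tested in the first, of which 564 kept their sign there. Over all 9261 genes tested in both runs the signs matched in 73.7%, and 60 genes were called in both. ENSRNOG00000055221 rose by 9.11 on the log2 scale in the first run and 8.66 in the second (adjusted p = 0.000502 and 7.27e-11). ENSRNOG00000012851 was called in the second run alone (adjusted p = 2.08e-06, against 0.0633 in the first), as was ENSRNOG00000011696 (0.000128, against 0.226), and the difference between runs was not tested. ENSRNOG00000004294 had a log2 fold change of -4.52 in the first run and -3.15 in the second (adjusted p = 0.0320 and 0.0499).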

How the data were processed

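For each compound the authors deposited a table of unnormalized estimated counts, of which 12.2% had decimals for PFO5DoA. STAR 2.7.8a, Partek, DESeq2 and the build mRatBN7.2 are named in the submitters' processing notes, without the order of steps. Values were rounded to whole counts and tested in R 4.3.3 with edgeR 4.0.16 (filterByExpr, TMM scaling, robust quasi-likelihood fit, Benjamini-Hochberg adjustment over all genes tested). Levels of single genes are TMM-scaled CPM. Maternal PFO5DoA levels were scaled in the maternal fit, fetal levels in the stage fit and PFO4DA levels in the joint fit. Levels from different fits are therefore compared only roughly.

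The 23 maternal PFO5DoA libraries at 0, 0.3, 1, 3, 10 and 30 mg/kg/d entered 1 fit, and 0.1 mg/kg/d was left out as in the study. The labels do not say which column of a dam is maternal, and the stage was taken from expression values for this report, as described above. Spearman's rho placed 0 columns differently. The stage fit used both libraries of 9 dams with the dam as a block, and the difference between compounds a joint fit of both tables. The SE of an edgeR log2 fold change was taken as its size over the square root of the F value of the test. A 95% interval is 1.96 of these on either side, a normal approximation that makes no allowance for the small number of libraries. Floors cover counting error only, and intervals the fitted spread between dams.

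The annotation lacked this type of identifier, so 0 of 20311 identifiers matched a symbol. Genes were therefore not named by symbol from 24 pathway lists and 10 marker lists, as had been planned. In their place the 2 largest rises and 2 largest falls were followed, among genes with an adjusted p under 0.05, at least 5 CPM in a group and groups that do not overlap (468 rises and 448 falls qualified). Libraries, lists and comparisons were chosen with earlier results of these data known. Every pair of libraries in a group differed by more than sampling noise (chi-square divided by its degrees of freedom, 21.7 or more), so none was counted as a duplicate. Replicate numbers of the titles were checked as a pairing, and they did not meet the rule for one. Alternatives were DESeq2 1.42.0, other scalings, filters, sets of libraries and the run of dam identifiers. The steps were tested on simulated data, with 200 changed genes in each of 3 simulations per test. Changes of 2-fold were recovered in 42.5% for 10 against 0 mg/kg/d, 2.01% for the stage difference and 14.4% for the compound difference. At 4-fold the shares were 82.5%, 49.7% and 67.7%, and at 1.5-fold 10.5%, 0% and 0.488%. Most simulated 2-fold differences between livers or between compounds were therefore missed. The simulated counts held no dam effect and only 200 genes changed, so these shares need not hold for the data.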

Additional observations from a re-analysis of the deposited data

Results flagged for a closer look

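Of 52 sets of values examined for a value far from the rest, 6 had one. Each set was 1 measure or gene over the libraries of 1 dose and stage. The rule flags about 1 in 20 sets of independent, normally distributed values. These sets share libraries, so no excess over chance can be read from the 6. The control of dam 2265 held 21555 CPM of ENSRNOG00000011696, against 1026 to 2873 CPM in the other 4 controls. At 30 mg/kg/d dam 2285 held 5194 CPM of the same gene, against 280 to 654 CPM in the other 3. Dam 2285 also had 16.3% of its counts in the 704 genes risen at 10 mg/kg/d, against 21.0% to 21.3% in the other 3 dams of its dose. Dam 2282, given 3 mg/kg/d, had the lowest total, 7132999 counts, against 10463512 to 10664989, and the lowest mean r with its group, 0.950. In fetal liver at 10 mg/kg/d dam 2277 had 0 CPM of ENSRNOG00000004294, where the others held 1 count each.

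Effects that differed by a direct test were the 230 genes whose maternal change differed from the fetal one and the 397 genes whose change differed between PFO5DoA and PFO4DA at 10 mg/kg/d. ENSRNOG00000055221 was in both sets, with differences of 2.22 and 6.20 on the log2 scale.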

How the results depend on the processing

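The count of 1488 genes changed at 10 against 0 mg/kg/d stayed within 1.5 times under DESeq2 (1824), RLE (1504) and upper quartile scaling (1492), no filter on low counts (1162), Spearman's rho for the stage (1488) and the fit without dam 2286 (1476). It also did with the library of dam 2279 (1669) and without dams 2263 and 2282 (1133), both tried after seeing the data. It was 793 with only 10 and 0 mg/kg/d in the fit, 783 with the dam run as a covariate, 78 in the first run, 588 in the second run and 297 with a minimum fold of 1.5. Leaving out each dam in turn gave 902 to 1872. With the replicate number as a block it was 446. Deviations of same-numbered dams had r of -0.0058, 0.0729, -0.108 and 0.147 for numbers 1 to 4. Only number 4 correlated best with its own number, so the numbers were taken as shared labels only.

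For 10 against 3 mg/kg/d, DESeq2 called 9 genes in place of 2, and leaving out a dam gave 0 to 4. For 30 against 10 mg/kg/d the range was 316 to 960 around 775, and DESeq2 called 1039. The maternal and fetal difference had 455 genes under DESeq2 in place of 230, with a range of 134 to 345. The difference between compounds had 731 under DESeq2 in place of 397, with a range of 205 to 530. The leave-one-out fits for neighbouring doses were added after seeing the data. The cause of these shifts was not tested, but fits without a dam hold fewer samples. No fold change of the 4 identifiers changed sign under any setting run. The balance of the calls did: 704 rises and 784 falls at 10 against 0 mg/kg/d became 399 and 384 with the run covariate, and rises were also the more numerous without dam 2263, 2276, 2277, 2283 or 2284.

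ENSRNOG00000055221 kept its call in every setting of 10 against 0 mg/kg/d. ENSRNOG00000012851 lost it in the first run alone. ENSRNOG00000011696 lost it in the first run, with the minimum fold, and without dam 2265, 2276, 2277, 2283 or 2284. Calls of ENSRNOG00000011696 and ENSRNOG00000004294 between livers or compounds that other settings added are given with those results. Totals of 7211576 counts or more limit genes of few counts most.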
